A study of Homo sapiens with 6 samples.

Results

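Small nucleolar RNAs (snoRNAs) and their close relatives, the small Cajal body RNAs (scaRNAs), were examined in the transcript models of a human pancreatic beta cell line, EndoC-βH1. Members were all models on chromosomes 1 to 22 and X whose gene name starts with SNORD, SNORA or SCARNA followed by a number. They were 391 of the 55083 models of the file: 262 SNORD, 106 SNORA and 23 SCARNA models, with 378 gene names between them. The 6 libraries of the series fall in 2 groups of 3. All 6 carry the same lentiviral construct for a short hairpin RNA against the INS promoter. In INS-KD the hairpin was induced with doxycycline at 1 mg/mL for 7 days, and in Negative Control no doxycycline was given. The labels name no separate cultures within a group, and no group that got doxycycline but lacks the hairpin.

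The submitters merged the libraries in 1 assembly of exon positions on hg19 with no abundance, so no level, no difference between the groups and no replicate spread can be given for any member, and the sequencing depth is unknown. All 391 members matched a RefSeq transcript exactly, and a reference transcript is in the file whether or not the cells make it. The marker check of the cell line therefore has no value here. What follows describes where the members lie in their host genes, what their sequences share, and which host transcripts the assembly added to RefSeq. All values are descriptions of 1 annotation. They come with no test, and members that share a host, a cluster or a repeated sequence are not independent of each other.

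SnoRNAs guide chemical changes to other RNAs in the nucleolus. C/D box snoRNAs (SNORD) guide methylation of ribose, H/ACA box snoRNAs (SNORA) guide the conversion of uridine to pseudouridine, and scaRNAs do the same for spliceosomal RNAs in Cajal bodies. In human cells most are cut out of introns of longer host transcripts after splicing, so that their supply depends in part on host transcription. Proteins that bind the boxes protect them from decay.

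The box motifs can be read directly from the members of GAS5, a non-coding host whose introns carry more C/D box snoRNAs than those of any other host in the file but the one in the chromosome 14 repeat. GAS5 lies at chr1:173833039-173837125 on the minus strand. The sequences, read from the GRCh37 genome on the member's strand, are shown in the order of the introns from the end of the gene to its start. Capitals mark the C box (TGATGA, start in the first 20 bases) and the last D box (CTGA, in the last 20 bases) where they are exact.
SNORD81: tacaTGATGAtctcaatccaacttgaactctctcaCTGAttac
SNORD47: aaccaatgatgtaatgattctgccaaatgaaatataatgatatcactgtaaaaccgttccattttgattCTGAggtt
SNORD80: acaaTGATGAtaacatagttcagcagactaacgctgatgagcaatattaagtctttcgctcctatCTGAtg
SNORD79: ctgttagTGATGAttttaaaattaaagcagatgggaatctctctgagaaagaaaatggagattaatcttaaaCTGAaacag
SNORD78: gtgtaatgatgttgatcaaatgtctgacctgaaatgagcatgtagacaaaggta
SNORD44: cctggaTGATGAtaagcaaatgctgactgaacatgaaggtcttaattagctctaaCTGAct
SNORD77: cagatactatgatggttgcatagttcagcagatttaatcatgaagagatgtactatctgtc
SNORD76: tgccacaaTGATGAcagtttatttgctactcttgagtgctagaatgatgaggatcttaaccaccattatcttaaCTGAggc
SNORD75: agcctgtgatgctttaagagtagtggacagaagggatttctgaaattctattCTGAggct
SNORD74: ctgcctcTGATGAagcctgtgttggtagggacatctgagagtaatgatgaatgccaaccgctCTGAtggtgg

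SNORD47, SNORD78, SNORD77 and SNORD75 have no exact C box, and the models of SNORD78 and SNORD77 also stop without a CTGA near the end. SNORD81 and SNORD78 are short models, of 43 and 54 bases, where the median SNORD model has 80 bases (quartiles 71 and 88.8). The H/ACA box members look different. They are longer, with a median of 134 bases (quartiles 131.2 and 137), and 85 of 106 end in ACA followed by 3 bases. The members printed were chosen among those that do, and SNORA44, SNORA36A and SNORA56 are among the 21 that do not. The first pair below comes from EIF4A1, which encodes the helicase of translation initiation, and the last from NOP56, which encodes a core protein of C/D box particles. Capitals mark the ACA.
SNORA48: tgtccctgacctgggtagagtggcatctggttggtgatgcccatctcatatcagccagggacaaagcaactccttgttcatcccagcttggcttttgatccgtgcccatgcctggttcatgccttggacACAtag
SNORA67: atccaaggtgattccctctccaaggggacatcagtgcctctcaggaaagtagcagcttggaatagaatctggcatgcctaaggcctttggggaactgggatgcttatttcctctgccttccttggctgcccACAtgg
SNORA51: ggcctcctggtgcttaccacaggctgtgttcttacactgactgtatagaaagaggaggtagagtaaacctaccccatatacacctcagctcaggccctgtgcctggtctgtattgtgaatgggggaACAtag

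Across the 260 single-exon SNORD models, 184 (70.8%) had an exact C box and 251 (96.5%) a D box in these windows, and 182 (70%) had both. Sequences of equal length served as background: the reverse strand of the member and the genome just upstream and just downstream of it. Both boxes were found there in 0%, 0% and 0.385%. With 1 mismatch allowed in the C box, 244 members (93.8%) had both, against 1.15%, 0.385% and 0.769% of the background. The C box began at a median of base 8 (quartiles 7 and 9), and a median of 5 bases followed the last D box. Of the 106 SNORA models, 85 (80.2%) had ACA exactly 3 bases before the end, against 4.72%, 0.943% and 1.89% of the background. The H box, searched as ANANNA in the middle 40 bases, was in 99 SNORA models (93.4%). That motif is loose, since it was also in 42.5%, 39.6% and 32.1% of the background. All motifs were searched on the strand of the sequence named.

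Predicted folding separated the families as well. The minimum free energy per base, computed with RNAfold, had a median of -0.339 kcal/mol in SNORA models and of -0.237 and -0.248 in the windows upstream and downstream. It was below both windows in 86 of 106 SNORA and in 19 of 23 SCARNA models. SNORD models had a median of -0.215 beside -0.214 and -0.204 in their windows, and 99 of 260 were below both. The base composition differed too, with a median GC content of 42.3% in SNORD, 49.4% in SNORA and 47.2% in SCARNA models, so the energies of the families are not matched for it.

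Most members lay inside a gene. A whole member was within a same-strand intron of another gene name in 267 of 391 cases (68.3%). This was so for 98 of 106 SNORA models (92.5%) and 21 of 23 SCARNA models (91.3%), but for 148 of 262 SNORD models (56.5%). The lower SNORD share was found in the repeated families SNORD113 to SNORD116, of which 15 of 118 models (12.7%) had a host. The other SNORD models had one in 133 of 144 cases (92.4%). MicroRNA gene models of the same file, a second class of small RNA often found in introns, had a host in 793 of 1693 cases (46.8%).

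For most of the other 124 models another annotation has a host. GENCODE release 44, mapped to the same build, placed 115 of them in a same-strand intron, and 113 of the 124 lay in clusters of 3 or more. The hosts it gave were SNHG14 for SNORD115 and SNORD116, MEG8 for all but 1 of SNORD113 and SNORD114, and TAF1D for 8 members on chromosome 11. The 11 unhosted members outside clusters were SCARNA2, SCARNA17, SNORA70G, SNORA76C, SNORD7, SNORD32B, SNORD56B, SNORD60, SNORD89, SNORD93 and SNORD104. Among them SNORA70G lay on the opposite strand of a RAP1B intron, and SCARNA17 overlapped an exon of SNHG22. SCARNA2 had no host in either annotation and began 3260 bases downstream of the nearest gene upstream, TMEM167B.

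**Figure D1:**
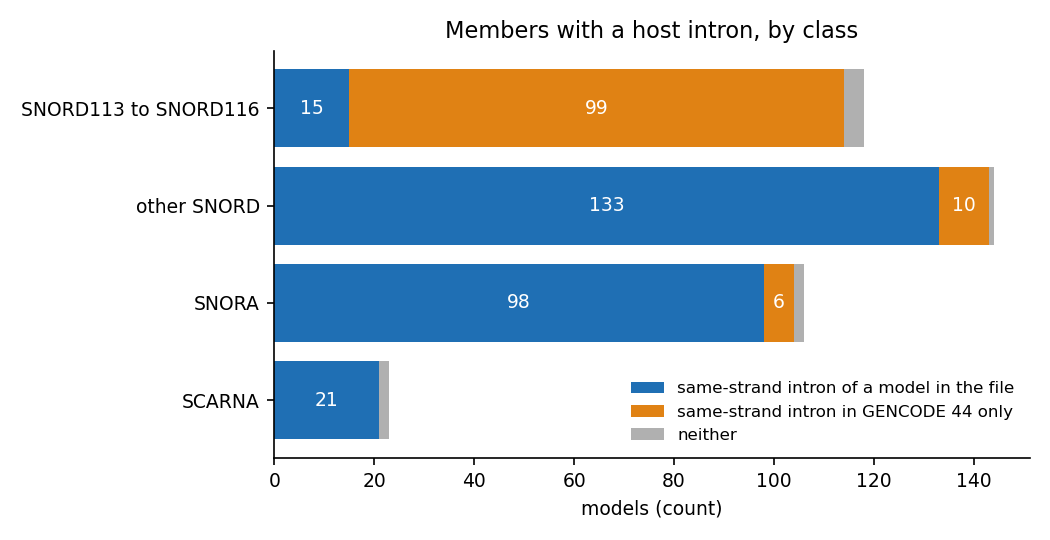
Number of models (horizontal axis) in each class of member, split by whether a same-strand host intron was found in the file (blue), in GENCODE release 44 only (orange) or in neither (grey). SNORD113 to SNORD116 stand apart, with 15 of 118 models hosted in the file and a further 99 in GENCODE.

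Hosts were 153 gene names, or 0.715% of the 21398 gene names with an intron. Ribosomal protein genes were common among them. Of 89 ribosomal protein gene names in the file, 28 (31.5%) hosted a member, and together they held 56: 39 SNORD and 17 SNORA. Nucleolar proteins were 11 hosts with 25 members, among them NCL (nucleolin), NOP56, NOP58 and DKC1. Translation factors were 11 hosts with 17 members, among them EIF4A1, EIF4A2 and EEF2. Another 5 hosts for splicing or RNA-binding proteins held 7 members, all SNORD, and 3 chaperone genes held 4. For the roles other than ribosomal protein, the number of genes in the file was not counted. Their counts therefore do not show whether such genes are hosts more often than others. The role lists were also adjusted after the hosts were seen. The other 74 coding hosts, of mixed function, held 92 members, including 19 of the 21 hosted SCARNA models. No SCARNA model lay in a gene of the ribosomal or nucleolar protein groups.

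Non-coding genes were 21 of the 153 hosts (13.7%) and held 66 of the 267 hosted members (24.7%). They carried a mean of 3.14 members each, against 1.52 in coding hosts. The non-coding mean is raised by LOC101929369, GAS5 and SNHG1, which held 15, 10 and 8 of the 66. The non-coding hosts include GAS5, ZFAS1, DANCR and 13 genes whose symbol SNHG stands for snoRNA host gene. One member was the rule: 100 hosts had 1, 26 had 2, 15 had 3, 8 had 4 and 4 had 5 or more. Of the 53 hosts with at least 2 members, 10 held more than 1 family. NOP56, for example, carried SNORD110, SNORD86, SNORD56 and SNORD57 beside SNORA51.

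The hosts with the most members were LOC101929369 with 15, GAS5 with 10, SNHG1 with 8 and NOP56 with 5. Those with 4 included EIF4A2, RPL13A, RPL23A, RPL4, RPL7A, SNHG12 and SNHG17. In several of these nearly every intron was used. A member lay in 11 of 11 introns of LOC101929369, in 10 of 11 of GAS5, in 8 of 10 of SNHG1, in 4 of 4 of RPL23A and in 4 of 5 of SNHG12. The intron of GAS5 without a member was the ninth, and the SNHG1 introns without one were the fifth and the tenth.

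**Figure D2:**
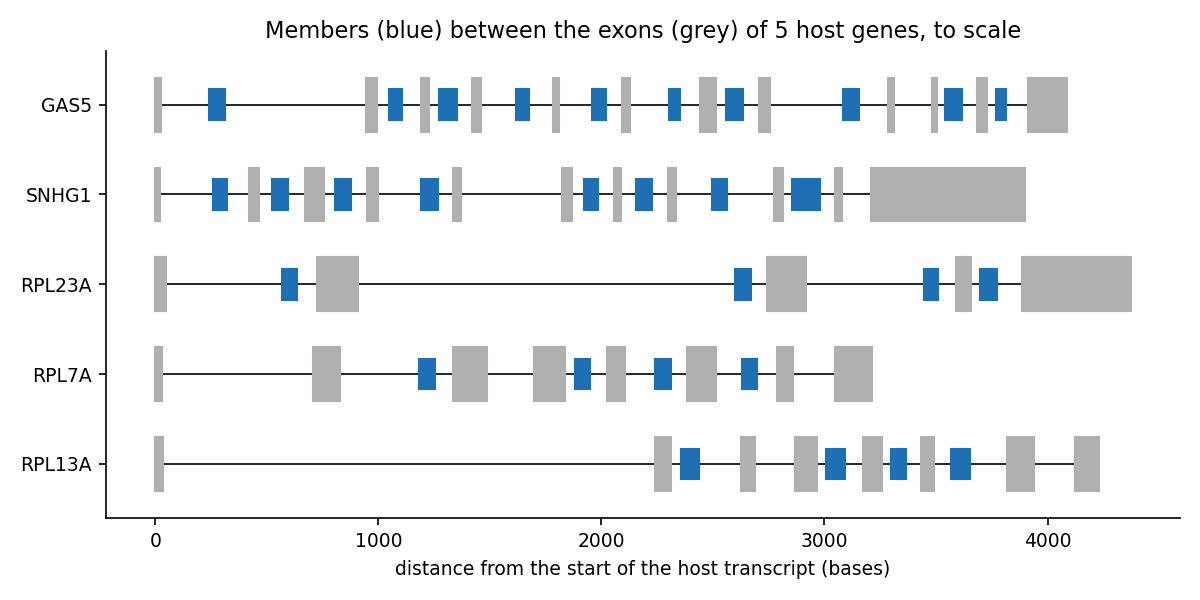
Exons (grey) and members (blue) along 5 host transcripts, with the distance from the transcript start in bases on the horizontal axis. In GAS5 and SNHG1 members fill 10 of 11 and 8 of 10 introns, and 7 of 10 and 7 of 8 of them end 60 to 99 bases before the exon on their right.

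One member per intron held almost throughout. The 267 hosted members filled 262 introns, and only 5 introns held 2. Of these, 4 were in LOC101929369 (SNORD114-13 with SNORD114-14, SNORD114-15 with SNORD114-16, SNORD114-18 with SNORD114-19, and SNORD114-20 with SNORD114-21). The fifth was an intron of 4537 bases in SNHG17, with SNORA71A and SNORA71C. Introns with a member had a median length of 799.5 bases (quartiles 363.5 and 1914.2), and the 2004 other introns of the same hosts one of 963 bases (313 and 2490.8). Within hosts the order was the opposite: in 104 of the 149 hosts that have both kinds (69.8%) the median intron with a member was longer than the median of the others. An intron with a member has to be long enough to hold it. The shortest had 151 bases, against 71 among the others, so the order within hosts is partly set by the definition. Members were in the first intron in 28 of 267 cases (10.5%), where first introns made up a mean of 13.7% of the introns of those transcripts, and in the last intron in 26 (9.74%).

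The gap to the next exon differed between families, which also lay in introns of unlike length. The median host intron had 538 bases for SNORD, 1104.5 for SNORA and 2789 for SCARNA models. It is known for C/D box snoRNAs that processing works best when a short, fixed stretch separates them from the end of the intron, where the branch point of splicing lies. In the 148 hosted SNORD models the gap to the downstream exon had a median of 110 bases (quartiles 79 and 470.8, range 4 to 8356). In the 98 hosted SNORA models the median was 380 bases (123.8 and 1922.5, range 48 to 86612), and in the 21 hosted SCARNA models 725 bases (102 and 3750). A gap of 60 to 99 bases, a window chosen after the distances were seen, was found in 65 SNORD models (43.9%), 20 SNORA models (20.4%) and 5 SCARNA models (23.8%). Among hosted microRNA models it was found in 10 of 793 (1.26%), in introns with a median length of 5620 bases. The gaps of these microRNA models had a median of 2271 bases, with quartiles of 0 and 17735.

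The gap on the other side of the member gave the comparison within the same introns. The upstream exon was 60 to 99 bases away in 13 SNORD models (8.78%) and 7 SNORA models (7.14%). Fewer members came closer than 60 bases to the downstream exon than to the upstream one. Downstream it was 4 of 148 SNORD (2.7%) and 2 of 98 SNORA models. Upstream it was 37 SNORD (25%) and 18 SNORA models (18.4%). The upstream gaps had a peak of their own at 30 to 69 bases, with 43 SNORD models (29.1%). In SNORA models 15 (15.3%) were in that range. SNORD models were not nearer to the downstream exon as a rule, since 67 were nearer to it and 81 to the upstream one.

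The short gap went with short introns and with clusters. In introns under 1000 bases, 56 of 94 SNORD models (59.6%) had a downstream gap of 60 to 99 bases and 13 (13.8%) an upstream one. In longer introns it was 9 of 54 (16.7%) downstream. In introns under 1000 bases the downstream share was 16 of 45 (35.6%) in SNORA and 4 of 6 (66.7%) in SCARNA models. Their median gaps there were 129 and 87.5 bases, beside 87 in SNORD models. In longer introns the share was 4 of 53 (7.55%) in SNORA and 1 of 15 (6.67%) in SCARNA models. The part of intron length in the difference between families was not tested. In clusters of 3 or more, 46 of 89 SNORD models (51.7%) had the downstream gap of 60 to 99 bases, and outside clusters 19 of 59 (32.2%), where the upstream share was 8.47%. The median gap was 95 bases in clusters and 224 outside them. By host, the share was 41 of 101 (40.6%) in coding and 24 of 47 (51.1%) in non-coding genes.

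**Figure D3:**
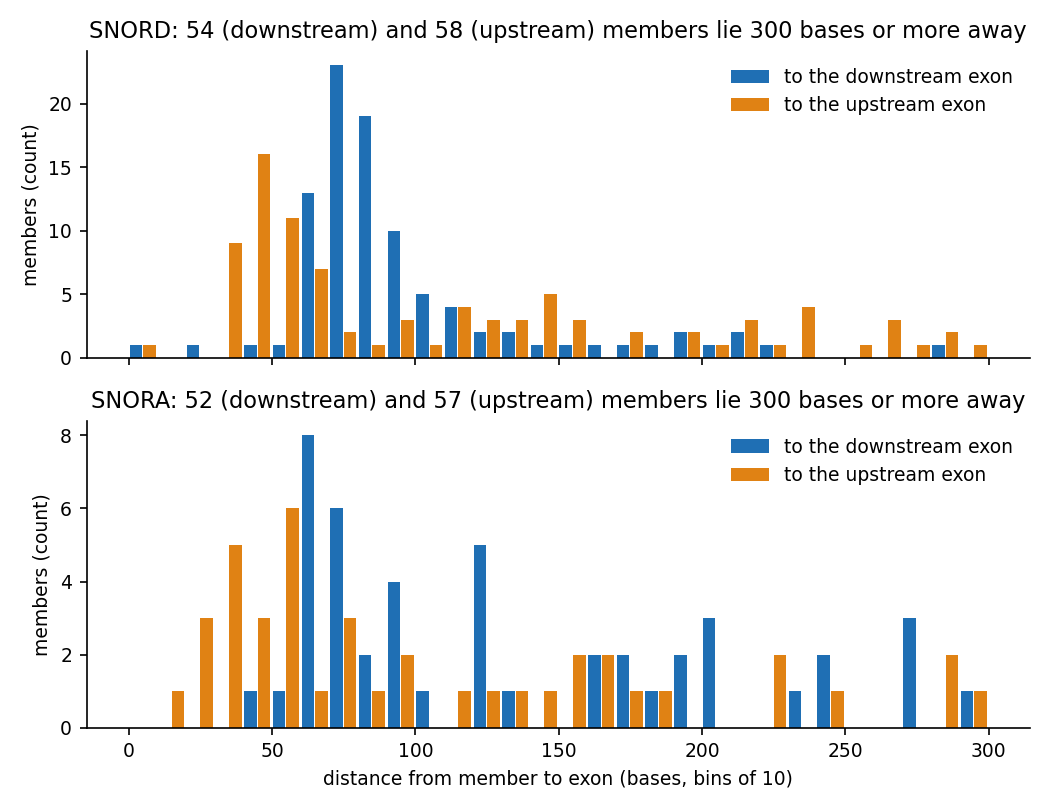
Number of SNORD (top) and SNORA (bottom) members by distance to the downstream (blue) and upstream (orange) exon of the host, in bins of 10 bases, up to 299 bases. Downstream gaps of SNORD members peak at 70 to 79 bases with 23 members, and upstream gaps at 40 to 49 bases with 16.

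Single hosts show how regular the gap can be. In RPL7A, which encodes a protein of the large ribosomal subunit, it was 80 bases for SNORD24, 75 for SNORD36B, 69 for SNORD36A and 89 for SNORD36C, while the gap upstream ran from 41 to 353 bases. In SNHG1 it was between 69 and 98 bases for 7 of 8 members, and 210 bases for SNORD31. In GAS5 it was 60 to 99 bases for 7 of 10 members, 104 and 128 bases for SNORD77 and SNORD80, and 630 bases for SNORD74 in the first intron. Other hosts were less regular. LOC101929369, with the most members, had 1 of 15 in the window and a median of 491 bases. RPL23A had 3 of 4, NOP56 2 of 5, RPL13A, RPL4 and EIF4A2 2 of 4 each, and SNHG12 1 of 4. NOP58 and SNHG17 had none in the window, with medians of 1431 and 2851.5 bases. The stretch from the end of the member to the next exon is shown for 3 members of RPL7A, on GRCh37 and the plus strand of chromosome 9. Capitals mark the last 10 bases of the member and the AG that ends the intron, and the last 10 bases in lower case are exon.
SNORD24: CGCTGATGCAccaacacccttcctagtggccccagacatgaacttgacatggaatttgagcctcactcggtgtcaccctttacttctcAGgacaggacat
SNORD36A: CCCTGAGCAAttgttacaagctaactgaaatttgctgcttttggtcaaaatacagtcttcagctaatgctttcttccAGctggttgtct
SNORD36C: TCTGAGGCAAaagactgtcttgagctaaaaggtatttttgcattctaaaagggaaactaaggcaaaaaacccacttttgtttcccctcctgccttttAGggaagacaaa

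These 3 stretches, with the 10 bases at each end, are between 89 and 109 bases long, although the introns they end run from 274 to 508 bases. At the extremes, SNORD49A and SNORD49B ended 4 and 24 bases before an exon of LRRC75A-AS1, and SNORD61 ended 40 bases before one of RBMX. The shortest host intron was used for these values, and 41 LRRC75A-AS1 models span SNORD49B. The shortest SNORA gaps were 48 bases for SNORA70 in RPL10 and 53 and 61 bases for SNORA4 and SNORA63 in EIF4A2. The longest SNORD gaps were 8356 bases for SNORD96B in AMMECR1, 5671 for SNORD17 in SNX5 and 4681 for SNORD114-18 in LOC101929369. The longest SNORA gaps were far larger, at 86612 bases for SNORA35 in HTR2C, 84914 for SNORA70C in ASTN2 and 21499 for SNORA11C in ZNF157.

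In clusters the members followed the exons of a host or the unit of a repeat. With at most 10 kb between neighbours on a strand, 28 clusters of 3 or more held 215 of 386 single-exon positions, with overlapping models counted as 1. The largest were SNORD115-1 to SNORD115-44 on chromosome 15 with 41 positions over 80218 bases, SNORD113-1 to SNORD114-31 on chromosome 14 with 38 over 68489 bases, and SNORD109B to SNORD116-30 on chromosome 15 with 31 over 66379 bases. These regions are imprinted, and loss of the paternal SNORD116 cluster is associated with Prader-Willi syndrome. GAS5 followed with 10 positions within 3571 bases and SNHG1 with 8 within 2722 bases. The 8 members from SNORA25 to SNORA40 on chromosome 11, over 4722 bases, had no host in the file, and GENCODE put them all in TAF1D.

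The commonest copy of each repeated family, or the alphabetically first sequence in SNORD113 and SNORD114, where each occurs 1 time, is printed from GRCh37 with exact C and D boxes in capitals, since these copies are the reference for the identities given next.
SNORD113-1: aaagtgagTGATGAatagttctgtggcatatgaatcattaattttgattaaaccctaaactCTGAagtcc
SNORD114-10: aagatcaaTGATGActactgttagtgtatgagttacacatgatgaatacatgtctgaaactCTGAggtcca
SNORD115-11: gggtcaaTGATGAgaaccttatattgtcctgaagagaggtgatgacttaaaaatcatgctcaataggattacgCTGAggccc
SNORD116-17: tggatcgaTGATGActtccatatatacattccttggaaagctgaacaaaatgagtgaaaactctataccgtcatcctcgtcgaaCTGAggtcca

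The copies were more alike in SNORD115 than in the other families. Identity was taken as the longest series of bases that both copies hold in the same order, with gaps free, as a share of the longer copy, so unrelated sequences also score well above 0. The 48 single-exon SNORD115 positions had 40 distinct sequences, with a median identity of 96.3% to the commonest one. The 30 SNORD116 positions had 27 distinct sequences and a median of 88.0%. The 31 SNORD114 positions were all distinct, with a median of 80.3%, and the 7 SNORD113 positions were too, with 72.4%. Identity to SNORD113-1 and SNORD114-10 depends on that choice of copy. The lowest SNORD115 value, 37.8%, belonged to SNORD115-47, a model of 33 bases. At 3 SNORD115 copies, named SNORD115-5, SNORD115-9 and SNORD115-10, a pair of models start 3 bases apart and end at the same base, so the 48 positions are 45 copies. Over these the median identity was 96.3%. Both boxes were exact in 40 SNORD115, 28 SNORD116, 20 SNORD114 and 6 SNORD113 positions.

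**Figure D4:**
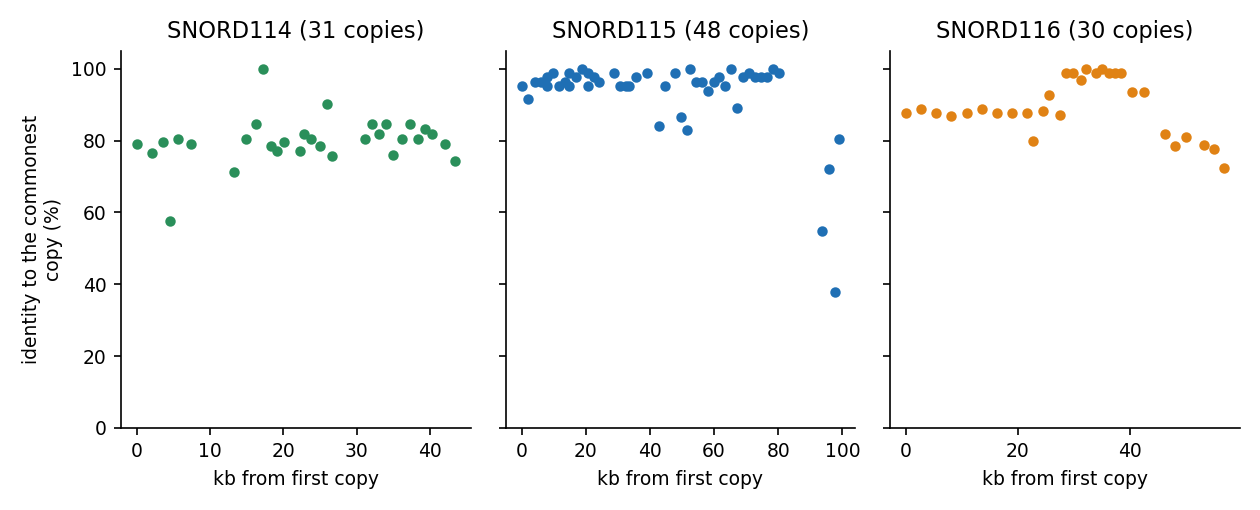
Identity to the commonest copy (%, vertical axis) against the distance from the first copy in kb for 31 SNORD114, 48 SNORD115 and 30 SNORD116 positions. SNORD115 copies lie mostly near 96.3%, and the lowest of them, 37.8%, is among the last copies of the array.

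The repeats also held the only members modelled with more than 1 exon. SNORD115-15 and SNORD115-21 were each modelled as 2 exons from base 25451409 to base 25477615 of chromosome 15, with an intron of 26126 bases in which 11 other members lie. In both, the first exon is the start of SNORD115-20 and the second the end of SNORD115-34. Each model thus joins parts of 2 other copies of the repeat. The introns begin with TT and GT and end with AA and TG, so neither has the usual GT and AG ends. The spliced length was 81 bases in both, with 96.3% identity to the commonest copy. Taking GENCODE's hosts, the gap from SNORD115 copies to the next exon of SNHG14 had a median of 245 bases with quartiles of 243 and 248. It was 966 bases (768 and 1693) for SNORD116 in SNHG14 and 543 bases (475.2 and 1046.8) for SNORD113 and SNORD114. A gap of 60 to 99 bases was found for 1 of 47 SNORD115, 1 of 29 SNORD116 and 1 of 38 SNORD113 and SNORD114 positions in these hosts. With GENCODE's host introns for all members, the median gap was 246 bases in SNORD and 329.5 bases in SNORA models, closer together than the 110 and 380 bases with the hosts of the file.

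SNORD115 is known for a stretch complementary to the messenger RNA of HTR2C, a serotonin receptor. The stretch and its match were read from GRCh37 and are printed, with the 18 complementary bases in capitals. In SNORD115-11 they run from base 56 to base 73 and end directly before the CTGA. The HTR2C site is at chrX:114082685-114082702 on the plus strand, in exon 5 of 6 of the reference transcript, and it lies in coding sequence in GENCODE.
SNORD115-11: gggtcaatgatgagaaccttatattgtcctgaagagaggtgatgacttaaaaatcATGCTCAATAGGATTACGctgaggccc
HTR2C site: CGTAATCCTATTGAGCAT

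The whole stretch was in 30 of the 48 SNORD115 positions, or 27 of the 45 copies, and in 0 of the 341 other single-exon members. Other SNORD models had a longest complement to HTR2C with a median of 9 bases and a maximum of 13. HTR2C is a host as well, since SNORA35 lies in its second intron, which has 103659 bases.

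Outside the repeats, the base pairing expected of guides was found in most SNORD models. A stretch of at least 10 bases that ends within 2 bases of a CTGA and is perfectly complementary to the ribosomal RNA precursor, which has 13357 bases in the reference, was found in 88 of 260 SNORD models (33.8%). On the background sequences it was found in 0.385%, 0% and 0.769%. However, a CTGA in the last 20 bases was in 6.92%, 5.77% and 8.08% of these, against 96.5% of the members. The background thus offered fewer places for such a stretch, and its shares do not measure matches at an equal number of boxes. All 88 were among the 144 models outside SNORD113 to SNORD116 (61.1%), and 0 of the 116 repeated positions had one. Stretches of at least 12 bases were found in 16.9% of SNORD models. The longest, 20 bases, was in SNORD20, which lies in an intron of NCL. These members are shown with the complementary stretch in capitals.
SNORD20: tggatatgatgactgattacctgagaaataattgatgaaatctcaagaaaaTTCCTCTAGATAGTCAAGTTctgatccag
SNORD57: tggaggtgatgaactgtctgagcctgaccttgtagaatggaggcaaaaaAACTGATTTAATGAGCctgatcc
SNORD105: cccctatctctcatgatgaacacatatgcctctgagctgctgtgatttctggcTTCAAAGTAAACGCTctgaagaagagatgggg
SNORD110: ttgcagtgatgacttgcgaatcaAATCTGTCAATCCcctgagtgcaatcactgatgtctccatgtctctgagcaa

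The stretch was upstream of the last CTGA in 38 members, as in SNORD20, SNORD57 and SNORD105, and of an inner CTGA in 50, as in SNORD110. In 6 members a stretch of 10 or more bases stood before 2 boxes. Along the precursor, 37 targets lay before the 5.8S ribosomal RNA, on the side that holds the small subunit RNA, 1 within it and 50 after it, on the side of the large subunit RNA. The precursor also holds spacers, and the bounds of the small and large subunit RNAs in it were not available. Targets in these RNAs and in spacers were therefore not told apart. C/D box particles methylate the ribose of the nucleotide that pairs with the fifth position upstream of the box. At that position the 88 stretches had 68 distinct bases of the precursor, which were A for 34 members, G for 30, U for 15 and C for 9. The same base was shared by 2 or more members in 18 cases, with 38 members, and in all 18 the members sharing it lay in 1 host. Examples are SNORD18A, SNORD18B and SNORD18C in RPL4, SNORD1A, SNORD1B and SNORD1C in SNHG16, SNORD36A and SNORD36B in RPL7A, and SNORD45A and SNORD45C in RABGGTB. Pairing was read as exact matches alone, so guides with a mismatch or a wobble pair were not counted.

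**Figure D5:**
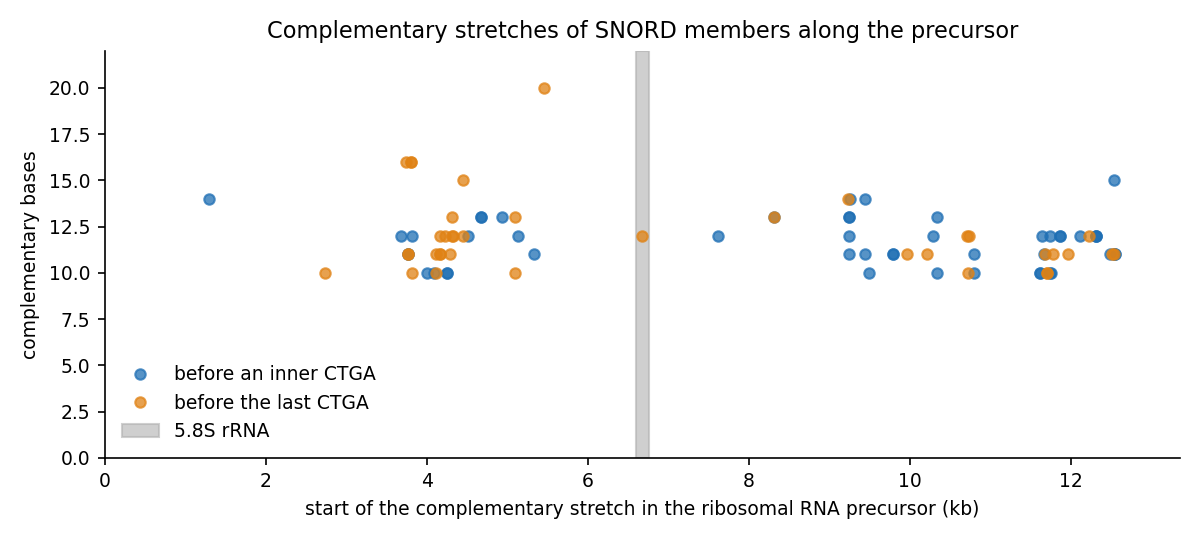
Length of the complementary stretch in bases against its start in the ribosomal RNA precursor in kb for 88 SNORD members, by whether it stands before an inner (blue) or the last (orange) CTGA, with the 5.8S region in grey. The targets form groups on both sides of the 5.8S region, and the longest stretch has 20 bases.

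A few members are also microRNA loci. In 5 cases a member overlapped a microRNA gene model: SNORA36B with MIR664A, SNORA81 with MIR1248, SNORA84 with MIR3651, SNORA34 with MIR1291 and SCARNA16 with MIR6516. A mature microRNA of each from RefSeq is shown with its seed, bases 2 to 8, in capitals. The seeds are all different.
hsa-miR-664a-3p: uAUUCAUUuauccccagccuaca
hsa-miR-1248: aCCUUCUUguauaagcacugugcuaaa
hsa-miR-3651: cAUAGCCCggucgcugguacauga
hsa-miR-1291: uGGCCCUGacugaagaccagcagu
hsa-miR-6516-5p: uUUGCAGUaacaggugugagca

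Their places in the member differed. The mature sequence of MIR1248 covered bases 1 to 27 of SNORA81, that of MIR1291 bases 2 to 25 of SNORA34, and that of MIR3651 bases 110 to 133 of SNORA84, which ends at base 133. None of the 5 overlapping members was SNORD.

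Host transcripts can splice around a member in more than 1 way. A member was in an intron of every host transcript that spans it in 257 of 267 cases (96.3%). Of the 124 members spanned by more than 1 host transcript, 72 (58.1%) were in the same intron in all of them. Exceptions included SNORA31, which was in an intron of 2 of 4 spanning transcripts of TPT1, and SNORA36A and SNORA56 in DKC1, in an intron of 5 and 6 of 8.

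The assembly itself adds information through joined models, which share splice junctions with known transcripts of a gene but form a chain that RefSeq lacks. They were taken by the class code of the assembly, and whether all their junctions are known was not checked. At least 1 was found for 30 of the 153 hosts (19.6%), where 12.4% of all 21398 gene names with an intron had one. Hosts also have more reference transcripts, with a mean of 2.49 against 2.02. Among gene names with 3 or more reference transcripts, the shares were 27 of 51 hosts (52.9%) and 45.5% of all. The part of transcript number in the difference was not tested. At hosts there were 63 joined models. Pairing each with each member of its host, the member stayed in the same intron in 49 pairs, was in an intron with another boundary in 53, overlapped an exon in 6 and was not spanned in 3. The 6 concerned SNORA36A (2 models) and SNORA56 in DKC1, SNORA31 in TPT1, SNORD73A in RPS3A and SNORD49B in LRRC75A-AS1. LRRC75A-AS1 alone had 9 joined models, C14orf159 had 8 and RPL17 had 6. Most of the 53 pairs with another boundary came from these hosts. Which group of libraries a joined model came from cannot be read from the file.

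The proteins of snoRNA particles are partly encoded by hosts. Of 31 genes in the file that were listed for core proteins, assembly, and RNA processing or decay, 3 hosted 10 members. Among the C/D box core genes, NOP56 held 5 and NOP58 held 3 (SNORD70, SNORD11B and SNORD11), while FBL, the methyltransferase, and NHP2L1 held none. Among the H/ACA core genes, DKC1, the pseudouridine synthase, held SNORA36A and SNORA56, while GAR1, NHP2 and NOP10 held none. The 14 assembly genes and the 9 processing or decay genes held 0. The list of 9 is broad, and not all of its genes are known to act on snoRNAs. The assembly genes were AQR, COIL, NAF1, NOLC1, NUFIP1, PIH1D1, RPAP3, RUVBL1, RUVBL2, SHQ1, TGS1, WRAP53, ZNHIT3 and ZNHIT6. The others were DBR1, which opens intron lariats, DROSHA, EXOSC10, EXOSC3, PARN, SMG6, UPF1, XRN1 and XRN2. Joined models were found for 6 of the 31: DKC1, NOLC1, RPAP3, ZNHIT3, DROSHA and PARN.

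The positions of members depend on the annotation. Of 389 single-exon members, 329 (84.6%) overlapped a snoRNA or scaRNA of the mapped GENCODE release, 150 (38.6%) with identical ends and 299 (76.9%) with both ends within 5 bases. The name was the same for 309 and another for 20, for example SNORA80E, listed as SNORA42, and SNORD116-9, listed as SNORD116-3. For 60 no overlapping record was in that release, among them 9 of the 10 GAS5 members. In the file itself, 18 members had a RefSeq accession that differs from their nearest-reference tag, and 9 gene names had more than 1 model, so names of repeated copies cannot always be tied to 1 position.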

How the data were processed

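Total RNA of 6 EndoC-βH1 libraries (3 INS-KD and 3 Negative Control) was sequenced, and groups follow the sample titles. The data are 1 merged transcript assembly. Per the submitters' processing notes, TopHat2 and Cufflinks were used with hg19, and no versions or settings are given. The deposited values are other than abundances: the first and last base of each exon (1-based), with name tags, and 0 of the 555595 exon lines has a score. No depth, level or test could be computed, and the cells' RNA enters through the joined models alone.

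Introns were rebuilt from exons in Python 3.11.15. A host has the whole member in a same-strand intron, and distances use the shortest such intron. A host with a coding RefSeq accession was called coding. Role lists were drawn up by hand, and 9 genes were added or removed by their known function after the hosts were seen. Sequences came from GRCh37 with pysam 0.24.0, folding from RNAfold 2.7.2, and GENCODE release 44 on GRCh37 gave a second set of names and hosts. The ribosomal RNA precursor was read from that genome. Host, distance and guide searches were tested on simulated data. Named members were those of the 12 hosts with the most members, the 3 shortest and 3 longest gaps of SNORD and SNORA, shared introns, unhosted members outside clusters, and the particle genes. The hosts were to be 6 for members and 10 for names, and ties at 4 members made both 12. Of these hosts, 1 is not reported here. Other members stand as examples chosen after their values were seen. Members and lists were chosen with earlier results of these data known.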

Additional observations from a re-analysis of the deposited data

How the results depend on the processing

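Of 27 alternatives, 20 left the value within 1.5 times (counts), inside its exact 95% Clopper-Pearson interval (shares) or inside the order-statistic interval of the median, and 7 did not. These intervals cover counting error only. The share of members in a same-strand intron rose from 68.3% to 97.7% with GENCODE transcripts. The median SNORD gap to the downstream exon, 110 bases, became 224 bases with clusters left out and 246 bases with GENCODE's host introns for all members that have one, an alternative chosen after seeing the data. That last one adds the repeated families, and it moved the SNORA median from 380 to 329.5 bases, inside its interval. The share of SNORD models with both boxes went from 70% to 93.8% with 1 mismatch in the C box, and the share with a complement to ribosomal RNA from 33.8% to 16.9% at 12 bases or more. The share of hosts with a joined model went from 19.6% to 52.9% among those with 3 or more reference transcripts, and the share of GENCODE ends that match from 38.6% to 76.9% within 5 bases. No paired analysis was possible because values per library are absent from the assembly, and for the same reason no replicate could be left out. The depth is unknown, so the lack of a joined model at a host does not show that the cells lack such a transcript.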
